A study of Mus musculus with 17 samples.

Results

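Adult Aire-knockout medullary thymic epithelial cells that carried a fluorescent Aire reporter were compared with adult wild-type cells of the same sort gate that did not. The comparison uses the 3 arrays titled as adult KO GFP+ cells and the 3 arrays titled as adult WT GFP- cells, chosen by those titles alone, 6 of the 17 arrays of the series. Both groups came from mice on the C57BL/6 background, aged 5 weeks and of mixed sex, that carry an Aire-driven Igrp-GFP transgene (Adig), on an Aire-KO or an Aire-WT background. All cells were flow-sorted from the thymic medulla as CD45- Ly51- MHCIIhi, then as GFP+ or GFP-. Amplified RNA of each sample was read on 1 Affymetrix Mouse Gene 1.0 ST array. The labels do not say whether the replicates come from separate mice or pools, so p-values rest on the scatter of these arrays alone, part of which may be technical.

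Medullary thymic epithelial cells show developing T cells the proteins of other organs, and T cells that bind them strongly are deleted or become regulatory cells. The Aire protein drives much of this ectopic transcription in the class II-high, Aire-expressing cells of the medulla. Cells that have passed the Aire stage, and cells that never enter it, include types that resemble skin, tuft, microfold, endocrine, ciliated and muscle cells. The reporter marks cells with an active Aire promoter, and in the knockout it marks cells that turned that promoter on without making the protein.

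The comparison changes the reporter gate and the Aire genotype together, and no adult KO GFP- array is analysed here, so the 2 factors cannot be told apart in it. The 3 adult WT GFP+ arrays are therefore given beside it. By the labels, KO GFP+ against WT GFP+ differs in genotype, and WT GFP+ against WT GFP- in the gate. These 3 comparisons share arrays, so their values are set side by side and none is support for another. The KO GFP+ arrays are numbered 1 to 3 and both adult WT groups 6 to 8. Genotype therefore cannot be told apart from whatever these numbers stand for. In bulk RNA, fewer cells of a type and less RNA per cell cannot be told apart.

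The array medians of the 17 arrays lay between an intensity of 144.5 and 157.1. Along the first principal component, which held 39.8% of the variance, the adult GFP- arrays lay at -49.8 to -44.5, the WT GFP+ arrays at 8.2 to 12.2 and the KO GFP+ arrays at 35.6 to 41.3. Values are RMA intensities, on a linear scale, and differences are KO GFP+ minus WT GFP- on the log2 scale ± standard error from limma, with Benjamini-Hochberg adjusted p over the 13842 genes that passed a filter on dim probe sets. A gene was called at an adjusted p under 0.05, and only called genes are termed higher or lower. Gene lists were written with earlier results of these data known, so each is described by its counts and its median beside those of all genes. Over all genes tested 30.1% were called higher and 25.1% lower, the shares to set beside each count of a list.

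The reporter check came first. G6pc2 encodes IGRP, the islet antigen of the reporter, so its probes can read the transgene. Its intensities were 8904, 9074 and 9091 on the KO GFP+ arrays, 8956, 8777 and 9689.8 on the WT GFP+ arrays and 1452, 1725 and 1664 on the GFP- arrays. Aire itself, which controls the transgene, read 4851, 4689 and 5242 in KO GFP+, 4355, 6196 and 4739 in WT GFP+ and 645, 930.1 and 495 in GFP- cells. Both GFP+ groups lay far above the GFP- group for both genes, with no overlap, while the 2 GFP+ groups overlapped each other for both. Since the gate selected for the reporter, the log2 differences of 2.49 ± 0.14 (G6pc2) and 2.88 ± 0.21 (Aire) describe the sort. The labels do not give the deleted stretch of Aire, so a transcript signal in KO cells checks nothing about the genotype. The GFP- cells still read Aire at 690 ± 221 (mean ± SD, n = 3), well over the 106.2 to 109.7 that marks the 40th percentile of these arrays.

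**Figure D1:**
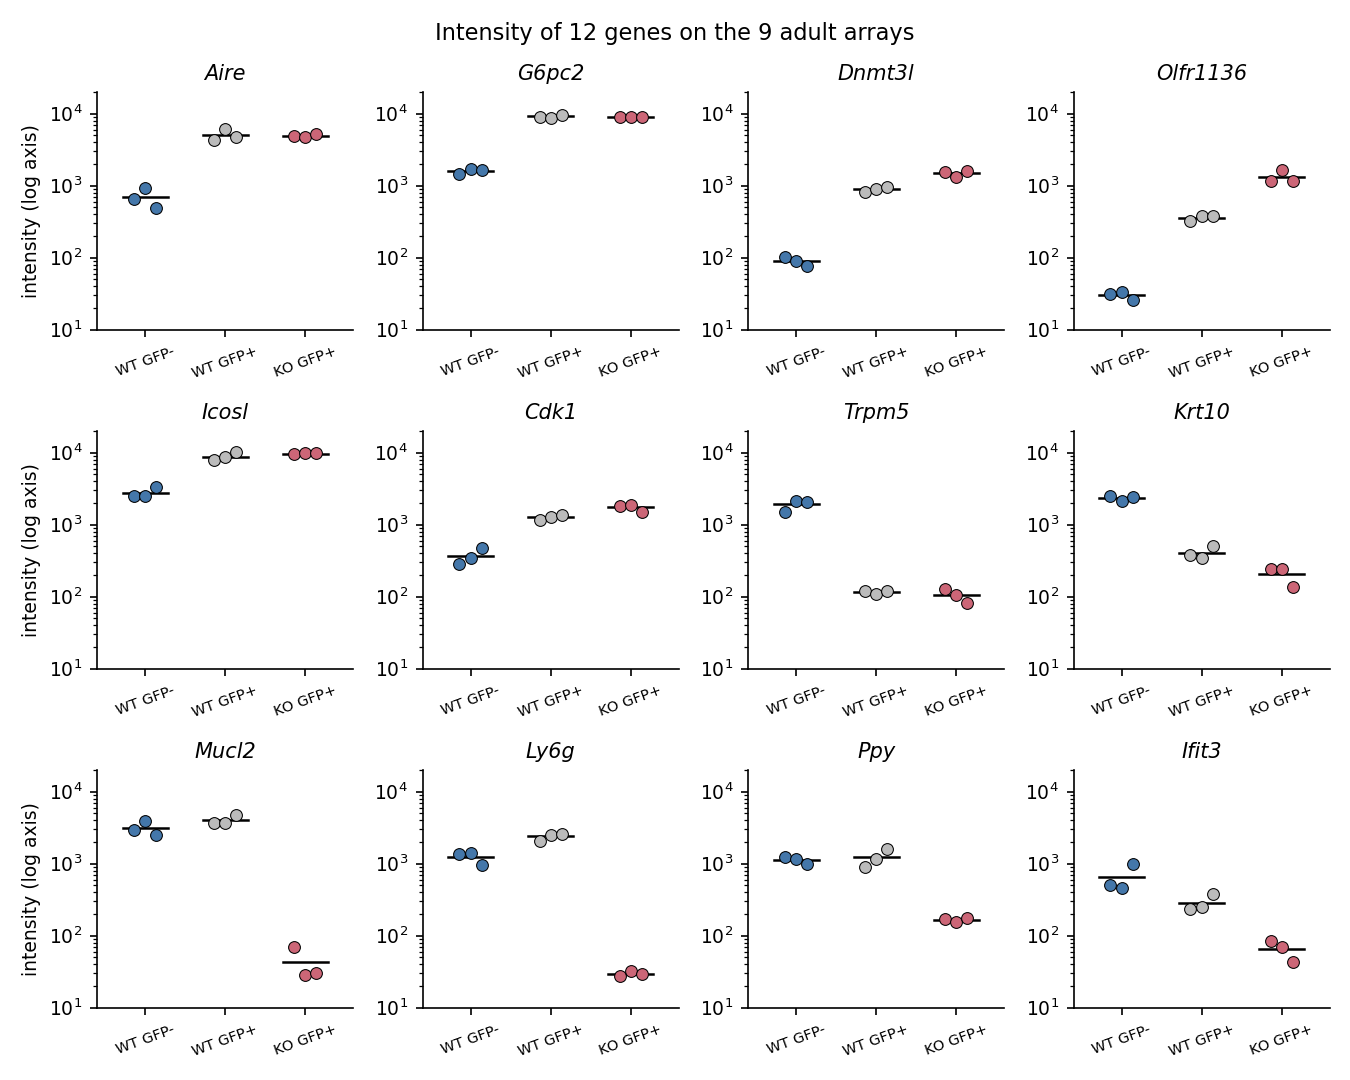
Intensities (log axis) of 12 genes on the 9 adult arrays, with 1 point an array and a bar at the group mean. Aire, G6pc2, Dnmt3l, Olfr1136, Icosl and Cdk1 are higher in both GFP+ groups than in GFP- cells, and Trpm5 and Krt10 lower in both. Mucl2, Ly6g and Ppy are lower in KO GFP+ cells than in both wild-type groups.

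Over all genes, the KO GFP+ and GFP- cells differed widely. Of 13842 genes tested, 4173 were called higher in KO GFP+ cells (30.1%) and 3471 lower (25.1%), and the median log2 difference of all genes was 0.02. That median was 0.02 for WT GFP+ against GFP- cells, 0.06 for KO GFP+ against WT GFP+ cells and 0.01 for the perinate comparison, given last. At least 2-fold differences were called for 970 genes higher (7.01%) and 1047 lower (7.56%). All 3 KO GFP+ arrays lay above all 3 GFP- arrays for 33.5% of the genes and below them for 28.4%. For 424 of the 1047 lower genes, 40.5%, the KO GFP+ mean lay under 101.4, the lowest 40th percentile of those arrays. There the size of a fold depends on the floor of the array. The same held for the GFP- mean, under 106.2, in 219 of the 970 higher genes, 22.6%.

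**Figure D2:**
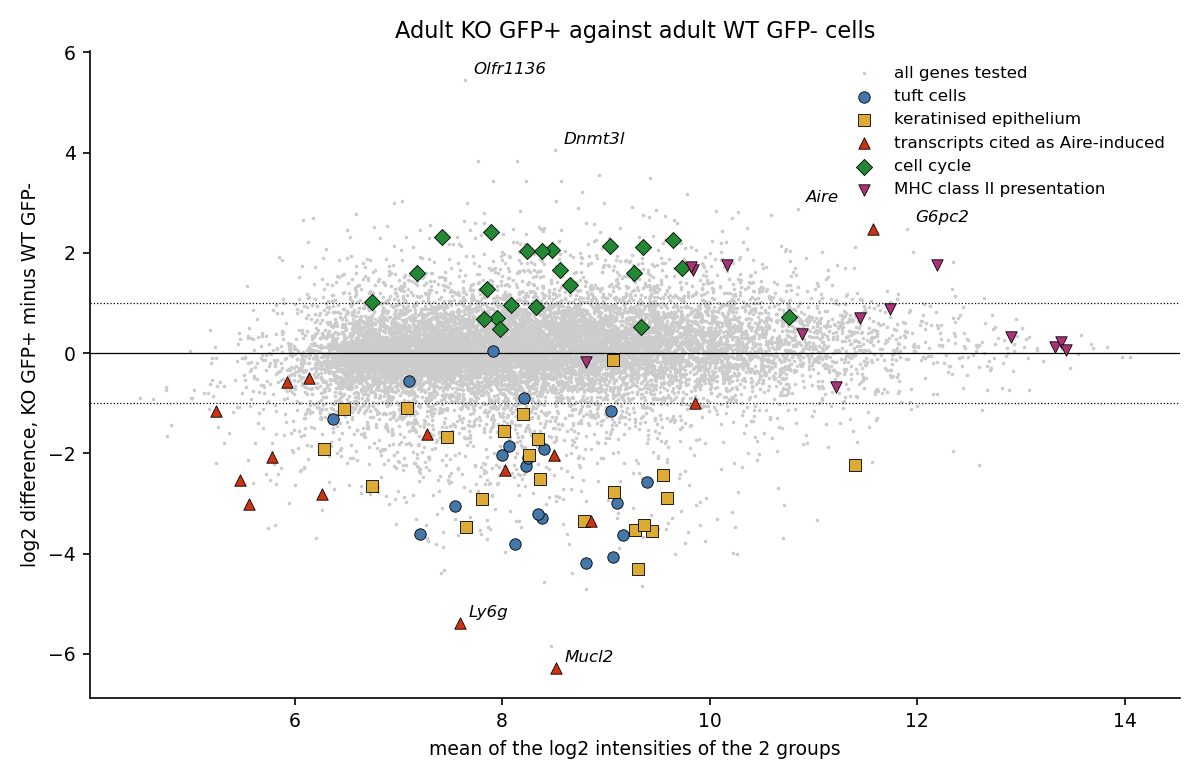
Log2 difference of KO GFP+ minus WT GFP- cells against the mean log2 intensity of the 2 groups, 1 point a gene, for the 13842 genes tested. Dotted lines mark 2-fold. Tuft and keratinised markers lie below 0, except Hmx2 and Tgm3 near it, and cell-cycle genes above 0, while Mucl2 and Ly6g, of the Aire-induced list, lie at the bottom.

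The largest excess in KO GFP+ cells was that of the olfactory receptor gene Olfr1136, with intensities of 1150.3, 1675 and 1148 against 31.6, 32.9 and 25.6 in GFP- cells. The log2 difference was 5.45 ± 0.22 (adjusted p = 3.35e-11). WT GFP+ cells lay between, at 319.5, 382 and 376, and the KO GFP+ excess over them was called too (1.86, adjusted p = 5.4e-06). Dnmt3l, the inactive cofactor of the DNA methyltransferases, followed, with 1558, 1318 and 1572 against 103, 90.6 and 75.9, a log2 difference of 4.05 ± 0.12 (adjusted p = 5.52e-13). Its WT GFP+ values of 814, 888 and 952 were again in between, and no 2 of the 3 groups overlapped for either gene.

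The 15 largest differences in this direction spread over many functions. Pln, which encodes phospholamban, the brake on the calcium pump of cardiac muscle, read 1077 against 74.6 (log2 difference 3.84 ± 0.17), and Myot, for the sarcomere protein myotilin, 570.4 against 72.0 (3.00 ± 0.14). Retinoid handling was represented by Cyp26a1, which breaks retinoic acid down, at 826 against 57.8 (3.83 ± 0.20), and Lrat, which esterifies retinol for storage, at 1324 against 144 (3.21 ± 0.26). Genes of nerve signalling were Crhbp, for the binding protein of corticotropin-releasing hormone (3.56 ± 0.12), Chrna5, a nicotinic receptor subunit (3.03 ± 0.22), and Dpp10, a partner of potassium channels (3.18 ± 0.16). The remaining ones were the Golgi protein gene Tvp23a (3.49 ± 0.18), the cartilage proteoglycan gene Epyc (3.45 ± 0.24), the claudin gene Cldn13 (3.44 ± 0.15), Kmo of the kynurenine pathway (3.04 ± 0.24), the SLAM-family receptor gene Ly9 (2.99 ± 0.14) and I830077J02Rik (3.44 ± 0.23). Against WT GFP+ cells, the KO GFP+ cells were called higher in 11 of these 15 genes, with log2 differences up to 2.24 for I830077J02Rik. Tvp23a (0.11), Cldn13 (-0.04), Kmo (-0.14) and Chrna5 (0.64) were not called. The 15 genes were chosen on the same KO GFP+ arrays. The count of 11 is therefore description only, and the 9.06% of all genes called higher there is no baseline for it.

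Dnmt3l is the gene next to Aire on chromosome 10, and the neighbourhood was looked at after these values were seen. In RefSeq the 2 genes lie on opposite strands, and the first of 3 Dnmt3l starts that the table lists is 1323 bases inside Aire from the Aire start. Whether a probe lies in the stretch they share is not known here. The 2 promoter windows, 250 bases before to 50 after the start, are shown because the reporter is driven by Aire and its neighbour was among the most different genes. They are read 5′ to 3′ on the strand of each gene, from RefSeq (GRCm38.p6), with capitals for TATAAA. This common core-promoter motif was searched on both strands. It stood 29 bases before the Aire start and was not found in the Dnmt3l window, while 14.2% of the 27025 promoters of the table hold it.
Aire, chr10:78043561-78043860, minus strand: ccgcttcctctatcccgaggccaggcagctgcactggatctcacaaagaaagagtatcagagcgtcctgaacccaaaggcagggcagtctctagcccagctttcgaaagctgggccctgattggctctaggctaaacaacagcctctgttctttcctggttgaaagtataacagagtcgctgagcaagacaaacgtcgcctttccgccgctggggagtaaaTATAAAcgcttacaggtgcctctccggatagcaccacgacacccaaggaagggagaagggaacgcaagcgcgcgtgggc
Dnmt3l, chr10:78042037-78042336, plus strand: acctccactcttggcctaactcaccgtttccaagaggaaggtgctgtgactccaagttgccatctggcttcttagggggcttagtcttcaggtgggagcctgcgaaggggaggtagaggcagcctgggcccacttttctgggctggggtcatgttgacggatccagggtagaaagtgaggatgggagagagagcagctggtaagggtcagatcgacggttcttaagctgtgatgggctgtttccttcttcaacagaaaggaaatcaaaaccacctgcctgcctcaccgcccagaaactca

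On both sides of this pair further genes were higher in KO GFP+ cells. Among the 10 nearest protein-coding genes with a tested probe set, 6 were called higher and none lower, where 30.1% and 25.1% of all genes were. Dnmt3l, which prompted the look, is among the 6. Pfkl, for a phosphofructokinase of glycolysis, had intensities of 3304 against 1601 (log2 difference 1.09 ± 0.21). Icosl, beyond Dnmt3l, is described with the costimulatory genes. Gatd3a (0.65 ± 0.10), Trappc10 (0.65 ± 0.10) and Trpm2 (0.35 ± 0.10) were higher by less than 2-fold, and Lrrc3, Cfap410, Pwp2 and Agpat3 were not called, although Agpat3 was called lower in 3 alternatives, without KO GFP+ array 1 (-0.28) among them. Between KO GFP+ and WT GFP+ cells, Dnmt3l was the only one of the 10 called. Over all genes 9.06% were called higher there and 10.8% lower.

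Many genes by which medullary cells present antigen and engage T cells were higher in KO GFP+ cells. Of 12 tested ligands and receptors of costimulation, 8 were called higher and 0 lower, with a median log2 difference of 0.66 against 0.02 for all genes. In WT GFP+ against GFP- cells, 7 of the 12 were higher and 0 lower (median 0.42), where 24.7% and 20.1% of all genes were. Icosl, the ligand of ICOS, read 9451, 9903 and 9827 in KO GFP+ and 2479.8, 2518 and 3332 in GFP- cells, a log2 difference of 1.82 ± 0.13 (adjusted p = 6.67e-09). Every KO GFP+ array was at least at the level of the WT GFP+ mean of 8841. Cd70 (1.65 ± 0.16), Tnfsf9 (1.2 ± 0.32), Cd80 (0.71 ± 0.16), Cd86 (0.70 ± 0.13) and Pdcd1lg2 (0.62 ± 0.15), ligands of CD27, CD137, CD28 and CTLA-4, and PD-1, were also higher, while the PD-1 ligand Cd274 was not called (-0.45 ± 0.21, adjusted p = 0.0763), although it was called lower in 5 alternatives, without KO GFP+ array 1 (-0.57) among them.

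Ctla4 differed from these ligands. This inhibitory receptor, a T-cell gene by its best-known role, read 1146, 1246 and 997 in KO GFP+ cells against 178, 212 and 90.8 in GFP- and 153, 171 and 156 in WT GFP+ cells. The KO GFP+ arrays stood above all 6 others, by 2.90 ± 0.23 against GFP- and 2.82 against WT GFP+ cells (adjusted p = 3.3e-08 and 8.96e-08). Its chromosomal neighbour Icos was called with a smaller difference (0.46 ± 0.16) and overlapping arrays, a call lost without GFP- array 7 (0.42), GFP- array 8 (0.36) or KO GFP+ array 3 (0.31), and Cd28 was not called (0.33 ± 0.44, adjusted p = 0.543). Of 7 tested thymocyte genes, 1, Cd4 (0.55 ± 0.19), was called, and not without GFP- array 7 (0.47), GFP- array 8 (0.37) or KO GFP+ array 3 (0.44). Cd3e read 234 against 266.

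Of 13 tested genes of class II presentation, 9 were called higher and 1 lower (median 0.39). Ciita, the master activator of class II genes, rose to 1611 from 517 (1.66 ± 0.23), H2-Ob, a modulator of peptide loading, to 2110.3 from 628 (1.76 ± 0.16), and H2-Eb2 to 8584 from 2558 (1.76 ± 0.13). H2-Eb1 was higher by 0.32 ± 0.08, and H2-Aa (0.13 ± 0.09) and Cd74, the invariant chain (0.06 ± 0.08), were not called, at KO GFP+ means of 10753 and 11240.5, near the top of the range of intensities. The protease gene Ctss, of cathepsin S, was higher (1.72 ± 0.16) and Ctsl, of cathepsin L, lower (-0.67 ± 0.23), a call that was lost without GFP- array 8 (-0.43) or KO GFP+ array 3 (-0.49). In class I presentation, 6 of 13 tested genes were higher, with Psme2 of the proteasome activator first (1.08 ± 0.14). Another 3 were lower, among them the peptide transporter gene Tap1 (-0.62 ± 0.11). Over all genes 30.1% were higher and 25.1% lower. In WT GFP+ against GFP- cells, 8 of the class II genes were higher and 0 lower (median 0.43). Of the class I genes, 6 were higher and 1 lower there (median 0.21), where 24.7% and 20.1% of all genes were.

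Receptors and transcription factors of medullary development were called in both directions. Of 20 tested, 10 were called higher and 3 lower (median 0.27), where 30.1% and 25.1% of all genes were. Cd40, a receptor that T cells use to expand the medulla, read 2738, 2505 and 2656 against 861, 864 and 709 (1.70 ± 0.11, adjusted p = 2.49e-09), with no overlap. Its adaptor gene Traf6 (1.43 ± 0.11), Tnfrsf11a for RANK (0.66 ± 0.14) and its decoy Tnfrsf11b (1.36 ± 0.16), and the NF-kB genes Relb (0.93 ± 0.15) and Nfkb2 (0.65 ± 0.10) were higher as well. Ltbr, the lymphotoxin receptor gene, was lower (-0.83 ± 0.14), as were Ehf (-1.07 ± 0.18) and Irf7 (-2.19 ± 0.18). Fezf2, which drives self-antigens that do not need Aire, was not called (0.25 ± 0.16, adjusted p = 0.184). In WT GFP+ against GFP- cells, 9 of the 20 were higher and 3 lower (median 0.27), where 24.7% and 20.1% of all genes were.

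Proliferation genes were higher nearly throughout. Of 22 tested genes of the cell cycle, 21 were called higher and 0 lower, 15 of them at least 2-fold, with a median of 1.60. Cdk1, the kinase that starts mitosis, read 1827, 1888 and 1509.6 in KO GFP+ and 288, 346 and 476 in GFP- cells (2.26 ± 0.16, adjusted p = 1.06e-08). The checkpoint kinase gene Bub1b was highest by difference (2.41 ± 0.18), and Top2a (2.14 ± 0.21), Ccna2 (2.11 ± 0.17) and Mki67 (1.61 ± 0.14), the gene of the Ki-67 antigen, followed in the same direction. Only Ccnd1, which acts before S phase, was not called (0.52 ± 0.24, adjusted p = 0.0807), although it was without GFP- array 8 (0.76) or KO GFP+ array 3 (0.68). In WT GFP+ cells the list stood at a median of 1.44 over GFP- cells. Between KO GFP+ and WT GFP+ cells 1 of its 22 genes, Bub1b, was called higher, where 9.06% of all genes were.

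Among 13 tested genes of apoptosis and survival, 4 were called higher, the death receptor gene Fas (1.5 ± 0.18) and the survival genes Birc3 (0.87 ± 0.12), Bcl2l1 (0.78 ± 0.14) and Xiap (0.62 ± 0.13), and 2 lower, Bak1 (-0.49 ± 0.14) and Bcl2l11 (-0.59 ± 0.21), which encodes the killer protein BIM. The counts are near or under the shares over all genes, 30.1% higher and 25.1% lower. The call of Bcl2l11 was lost without GFP- array 6 (-0.52), GFP- array 7 (-0.58), KO GFP+ array 1 (-0.57) or KO GFP+ array 2 (-0.45). Of 23 tested genes for proteins reported to assist Aire, 6 were higher and 2 lower, neither above the share over all genes, and 4 were lower after quantile normalization (median 0.09). After Dnmt3l and Top2a, the largest was Sirt1, a deacetylase that acts on Aire, at 4302 against 1086 (2.02 ± 0.24). Ep300 (-0.53 ± 0.13) and Atf7ip (-0.55 ± 0.10) were lower, but a second probe set of Atf7ip gave 0.12 (adjusted p = 0.496).

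The 15 largest differences in the other direction were led by Mucl2. Mucl2, a mucin-like gene of salivary glands, read 70.4, 28.2 and 30.4 in KO GFP+ cells against 2954, 3923 and 2486 in GFP- and 3706, 3719 and 4759 in WT GFP+ cells. The log2 difference from GFP- cells was -6.29 ± 0.60 (adjusted p = 2.22e-07), and KO GFP+ array 1 lay above arrays 2 and 3. Ly6g, best known as a neutrophil surface gene, read 27.3, 32.7 and 29.0 against 1379.5, 1422 and 966 in GFP- and 2081, 2479.7 and 2603 in WT GFP+ cells, a log2 difference of -5.39 ± 0.15. For both genes the KO GFP+ values lay under the 40th percentile of their arrays, while both wild-type groups were high.

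The remaining 13 of the 15 formed 2 kinds by their WT GFP+ level. Scgb1a1, of airway club cells (-5.85 ± 0.36), the glandular kallikreins Klk1b22 (-4.56 ± 0.29) and Klk1b8 (-4.38 ± 0.18), Tac2, of neurokinin B (-4.39 ± 0.22), Ly6a2 (-4.33 ± 0.20), the GABA receptor gene Gabrp (-4.65 ± 0.28) and Gpx3, a secreted peroxidase (-3.99 ± 0.22), read 929, 1436, 1995, 1191, 1889.6, 945 and 3619 in WT GFP+ cells. Their KO GFP+ means ran from 36.6 for Tac2 to 308 for Gpx3, and each was called lower than in WT GFP+ cells by at least -2.88 on the log2 scale, the value of Gabrp. Trpm5, Rgs13, Krtdap, Cyp2b19, Cyp2f2 of club cells (-4.01 ± 0.29) and Klk1b16 (-4.0 ± 0.46) read less in WT GFP+ cells than the genes above. Their values there were 116, 66.2, 241, 227, 567 and 644. All but Trpm5 and Rgs13 still lay above the medians of those arrays, 155.4 to 157.1, Cyp2f2 and Klk1b16 by the most. The split was drawn after the values were seen. Kallikrein and Ly6 genes have near-identical copies whose probes may cross-hybridise.

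The list of transcripts cited as Aire-induced followed the first kind. Of its 15 tested genes, 14 were called lower in KO GFP+ than in GFP- cells and 1 higher, with a median of -2.07. Crabp1, which binds retinoic acid, read 100.2, 127 and 119 against 652, 631 and 479 in GFP- and 2429.7, 2845 and 2339.8 in WT GFP+ cells (-2.34 ± 0.14). The milk protein genes Csn1s1 (-3.02 ± 0.22) and Csn1s2a (-2.07 ± 0.21), the trefoil factor gene Tff3 (-3.34 ± 0.17), the odorant-binding protein gene Obp2a (-2.82 ± 0.17) and Ins2, for insulin (-1.62 ± 0.19), were lower likewise. Csn2, for beta-casein, which the list of Aire-independent antigens holds too, went the other way, at 6822, 7350.2 and 7093 against 1447, 1576 and 911 (2.47 ± 0.17), with WT GFP+ cells at 5990.4. Over the same list, WT GFP+ cells stood 0.99 above GFP- cells by median and KO GFP+ cells -3.58 from WT GFP+ cells, with 14 of the 15 called lower there against 10.8% of all genes.

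Most genes of digestive organs were lower in KO GFP+ cells as well, while the medians of WT GFP+ against GFP- cells were 0.00 for pancreas and 0.16 for gut and stomach. Calls between those 2 groups went both ways, with 4 higher and 4 lower of 13 pancreas genes. For gut and stomach 7 were higher and 7 lower of 22. Over all genes 24.7% were higher and 20.1% lower there. For the pancreas, 12 of 13 tested genes were called lower and 0 higher (median -2.51). Ppy, of the islet hormone pancreatic polypeptide, read 171, 157 and 173 in KO GFP+, 1235, 1166 and 977 in GFP- and 899, 1154 and 1605 in WT GFP+ cells (-2.75 ± 0.18, adjusted p = 3.6e-09). The digestive enzyme genes Pla2g1b (-3.50 ± 0.22) and Ctrb1 (-3.40 ± 0.17), the colipase gene Clps (-2.95 ± 0.22), the islet peptide gene Iapp (-3.34 ± 0.20) and Sst, for somatostatin (-2.51 ± 0.17), were lower too. Spink1, an inhibitor of trypsin, differed in its WT GFP+ level: it read 43.9 in KO GFP+, 107 in WT GFP+ and 616 in GFP- cells.

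For gut and stomach, 18 of 22 tested genes were lower and 1, the brush-border protease gene Mep1a (0.81 ± 0.13), higher (median -1.56). Pgc, for a pepsinogen, fell to 49.1 from 358 (-2.88 ± 0.14), the mucin gene Muc5ac to 64.1 from 437 (-2.75 ± 0.17), and Reg3b, of antimicrobial defence, to 38.9 from 407 (-3.41 ± 0.28). For the liver, 13 of 18 were lower and 0 higher (median -0.52), by -2.10 ± 0.16 for the apolipoprotein gene Apoa1 and -1.83 ± 0.17 for albumin. Of 12 brain genes, 5 were higher and 4 lower, where 30.1% and 25.1% of all genes were. The values named here are 1.2 ± 0.16 for Calb1 and -2.54 ± 0.19 for neurotensin (Nts). Without GFP- array 8 or KO GFP+ array 1, 3 were higher.

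The list cited as Aire-independent self-antigens was mixed, with 5 higher and 7 lower of 13 tested (median -0.49), beside 30.1% and 25.1% of all genes. Maoa, which breaks monoamines down, had the largest excess, at 604, 913 and 783 against 134, 88.9 and 101 (2.83 ± 0.21), and stood above the WT GFP+ values of 204, 178 and 202 as well (1.96, adjusted p = 2.63e-06). The lower ones were led by Krt10, which also counts as keratinised.

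Tuft-cell genes showed the second kind of difference, low in both GFP+ groups. Tuft cells are chemosensory cells that use taste-receptor signalling and release interleukin-25. Of 20 tested genes, 19 were called lower in KO GFP+ than in GFP- cells and 0 higher, 17 of them at least 2-fold, with a median of -2.41. Trpm5, the cation channel of taste signalling, read 129, 105 and 81.3 against 1506, 2152 and 2065 (-4.19 ± 0.22, adjusted p = 4.13e-10), and WT GFP+ cells read 119, 108 and 121. The KO GFP+ and WT GFP+ arrays overlapped there, and both were far under the GFP- arrays.

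Along the same cascade, the taste G-protein gene Gnat3 (-3.80 ± 0.48) and the phospholipase gene Plcb2 (-3.62 ± 0.20) were lower, as was Pou2f3, the transcription factor that tuft cells need (-2.58 ± 0.21). The leukotriene genes Alox5 (-2.98 ± 0.27) and Alox5ap (-3.21 ± 0.25), Avil (-3.28 ± 0.21), Dclk1 (-1.91 ± 0.18) and Il25 (-0.56 ± 0.11) were also lower, and Hmx2 was not called (0.05 ± 0.11, adjusted p = 0.724). Between the 2 GFP+ groups, 1 of the 20, Il17rb (-0.50), was called lower and 0 higher, with a median of -0.09. Over all genes 10.8% were called lower there and 9.06% higher. For Trpm5 the 95% interval of KO GFP+ minus WT GFP+ cells ran from -0.63 to 0.29.

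Genes of keratinised epithelium were lower in 21 of 22 tested, with 0 higher, all 21 by at least 2-fold, and a median of -2.47. Krt10, the keratin of upper skin layers, read 242, 242 and 137 in KO GFP+ and 2509, 2126 and 2431 in GFP- cells (-3.55 ± 0.19, adjusted p = 6.67e-10), with WT GFP+ cells at 379, 341 and 498. Krt1, its partner (-3.47 ± 0.20), Krtdap (-4.31 ± 0.45), Ivl, for involucrin (-2.91 ± 0.24), Lor, for loricrin (-1.11 ± 0.19), and Spink5, a skin protease inhibitor (-2.89 ± 0.39), followed. Tgm3, for a transglutaminase of the cornified envelope, was the one not called (-0.14 ± 0.12, adjusted p = 0.367), although it was without KO GFP+ array 1 (-0.29).

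The list was not uniform in WT GFP+ cells. 16 of the 22 were called lower there than in GFP- cells, where 20.1% of all genes were, and 1, Klk5, higher, where 24.7% were. 10 were lower in KO GFP+ than in WT GFP+ cells, where 10.8% of all genes were. Spink5 read 204 in WT GFP+ and 293 in KO GFP+ cells, whereas Klk7 read 709 and 139, and Sprr1a, for a small proline-rich protein of the cornified envelope, 4654 and 1267.

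TATAAA also stands in promoters of the lists. It stood in the window of 7 of the 18 keratinised genes with a RefSeq promoter (38.9%), against 14.2% of all promoters in the table. The interferon-response list had 33.3%, the Aire-induced list 15.4% and the tuft list 11.8%, and none of the 18 cell-cycle genes with a promoter held it. Krt10 shows it 26 bases before its start, again in capitals. The comparison is a description of windows of equal length and tests nothing. Over all genes changed at least 2-fold no such share is given, because only 75.2% of the lower and 78.2% of the higher genes have a window in the table, and lists under 80% are left out too. The table also holds genes not tested here, so the list shares and the 14.2% rest on unlike sets. Of all genes tested 79.4% have a window, so their share is left out as well.
Krt10, chr11:99389315-99389614, minus strand: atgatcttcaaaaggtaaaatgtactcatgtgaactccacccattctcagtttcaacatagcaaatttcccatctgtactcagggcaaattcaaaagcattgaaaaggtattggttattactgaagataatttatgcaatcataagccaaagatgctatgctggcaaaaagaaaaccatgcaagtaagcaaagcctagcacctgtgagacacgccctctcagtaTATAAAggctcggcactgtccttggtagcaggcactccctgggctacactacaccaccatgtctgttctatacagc

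**Figure D3:**
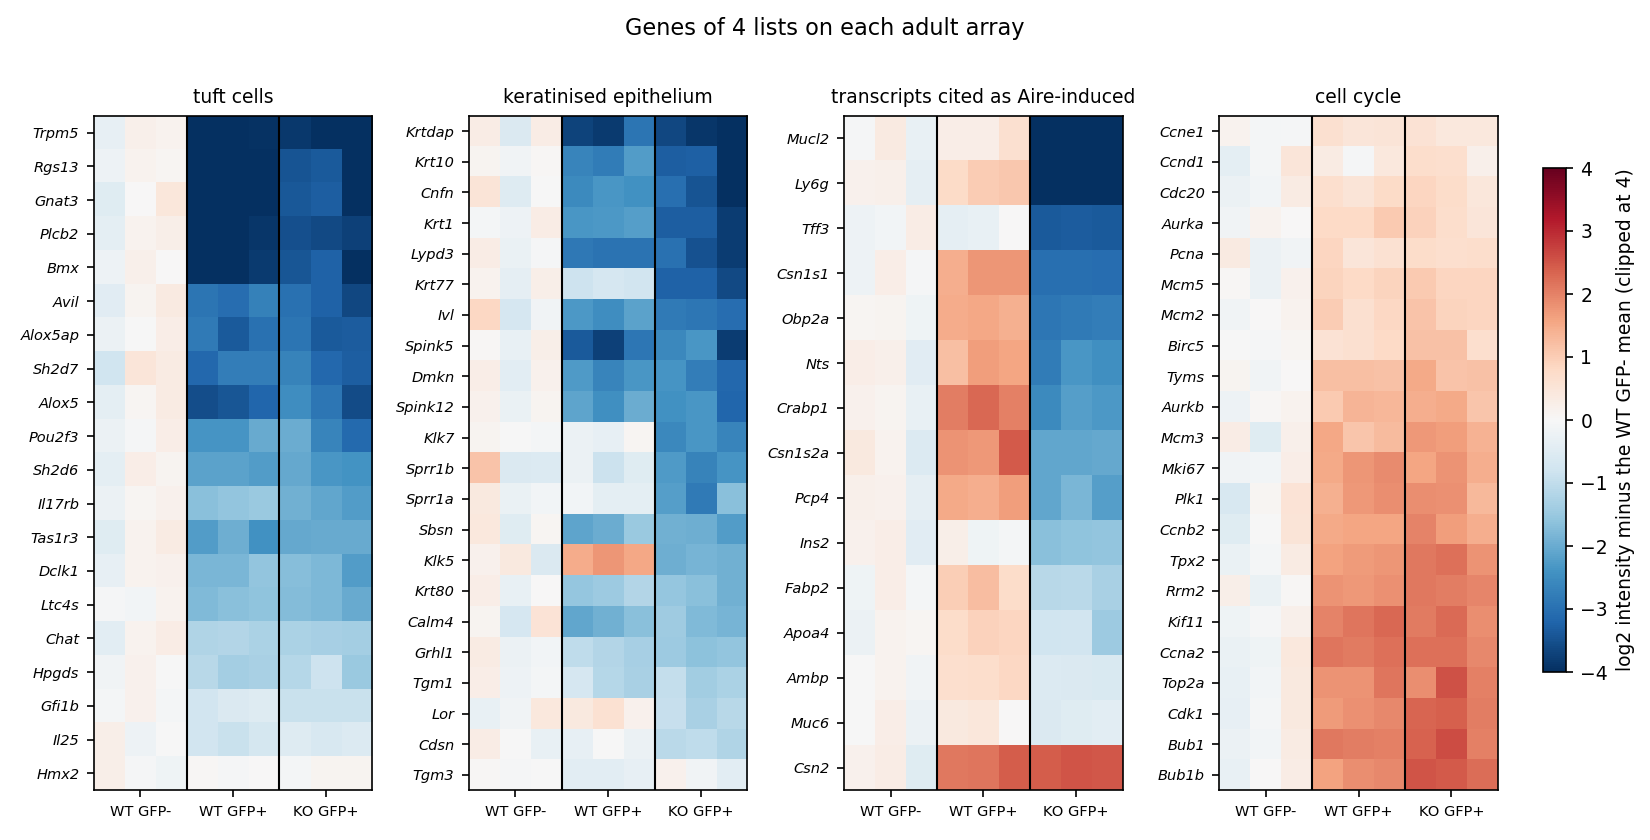
Log2 intensity minus the WT GFP- mean for the tested genes of 4 lists (rows) on the 9 adult arrays (columns), clipped at 4. Tuft genes are low on all 6 GFP+ arrays, Aire-induced transcripts are low on the 3 KO GFP+ arrays with Csn2 as the exception, keratinised genes hold both patterns, and cell-cycle genes are high on all 6 GFP+ arrays.

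The other specialised cell types gave smaller differences. All 13 tested genes of ciliated cells were lower (median -0.97), from -2.64 ± 0.23 for the dynein gene Dynlrb2 to -0.51 ± 0.11 for the master factor gene Foxj1 among those named here, and 6 of the 13 were called lower under a stricter filter on dim genes, which tests fewer genes. Of 13 genes of microfold cells, 6 were lower, with Gp2, the receptor that takes up bacteria, at 369.9, 314 and 92.8 against 2351, 2536 and 2037 (-3.38 ± 0.50), and 1, Tnfrsf11b, higher. The transcription factor gene Spib of that lineage was not called (-0.07 ± 0.14, adjusted p = 0.692). Endocrine genes were lower in 8 and higher in 3 of 14. The lineage factor gene Insm1 (1.12 ± 0.23) and the receptor gene Ret (1.82 ± 0.14) were higher, while the products Chga (-1.37 ± 0.16) and Gal, for galanin (-2.66 ± 0.14), were lower. Muscle genes were lower in 4 of 13, near the 25.1% of all genes, among them the acetylcholine receptor gene Chrna1 (-0.68 ± 0.10), and higher in Des and Ttn; Myog was not called (-0.43 ± 0.19, adjusted p = 0.0676), although it was called lower without GFP- array 6 (-0.69) and with array weights.

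Markers of immature and basal medullary cells were lower in 10 of 14 tested and higher in 1, or in 2 without GFP- array 7, GFP- array 8 or KO GFP+ array 3 (median -0.69). Plet1, a marker of thymic epithelial progenitors, read 249.9, 225 and 200.1 against 2718, 1819 and 1842 (-3.22 ± 0.26, adjusted p = 2.71e-08). Ly6d (-3.03 ± 0.28) and the basal keratin gene Krt5 (-1.77 ± 0.31) were lower, and the integrin gene Itga6 was higher (0.64 ± 0.11). In the cortical list 6 of 14 were higher, with Cd83 (1.27 ± 0.23) and Ccl25 and the stem cell factor gene Kitl (0.90 ± 0.13) among them. Only 2 were lower, Pax1 (-0.67 ± 0.13) and Ackr4 (-1.0 ± 0.19). The shares over all genes were 30.1% and 25.1%.

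**Figure D4:**
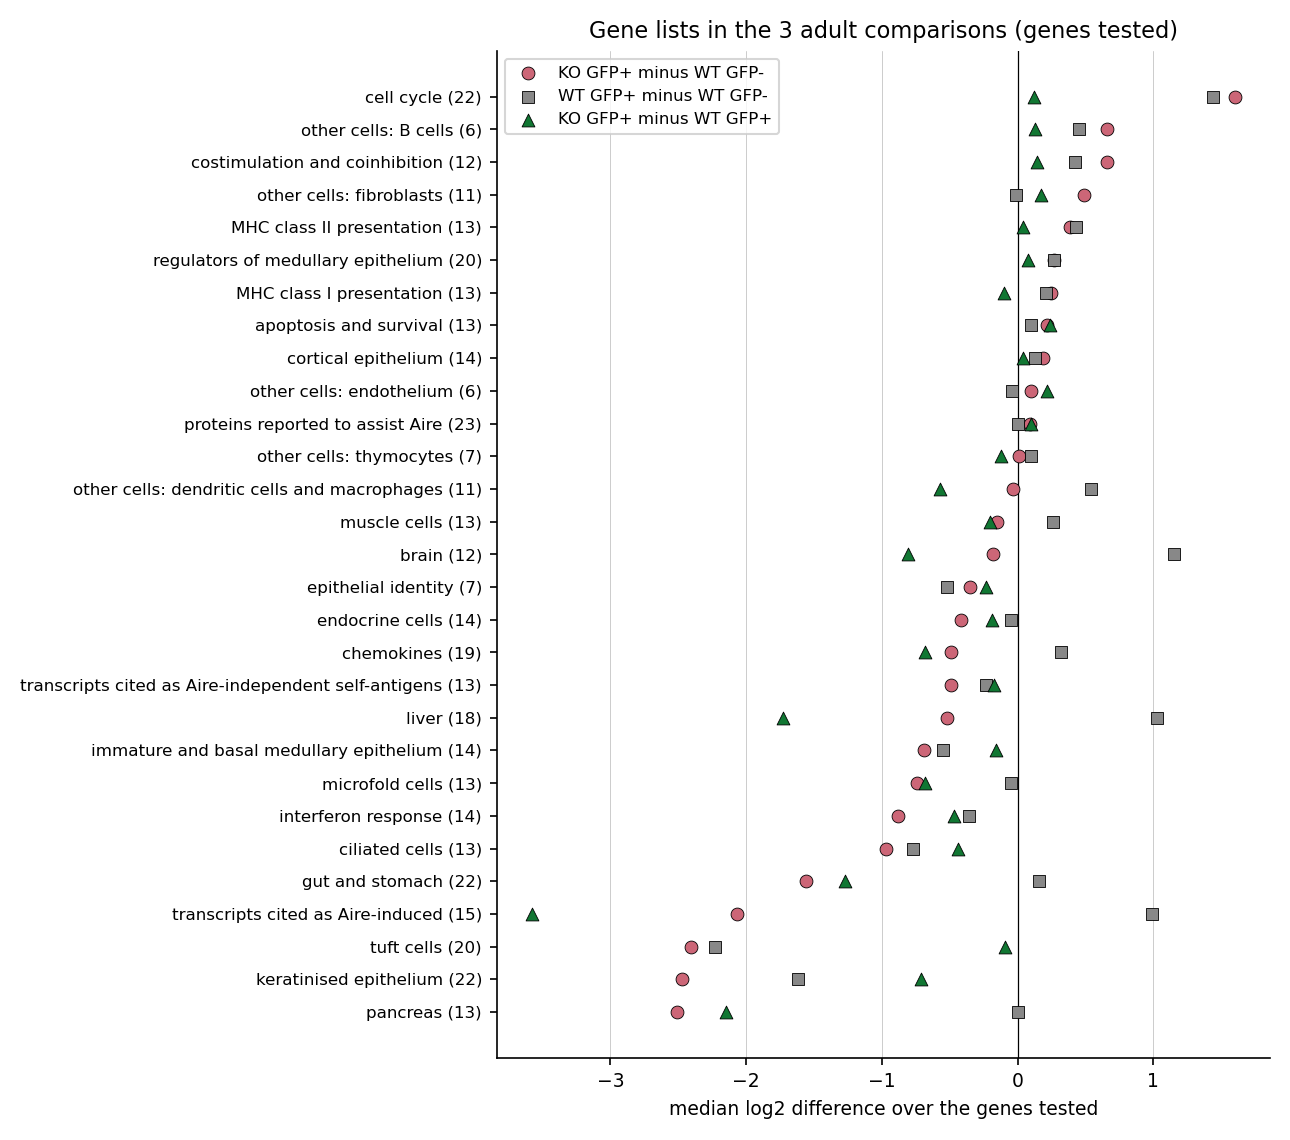
Median log2 difference of each gene list over its tested genes (number in brackets) in the 3 adult comparisons, which share arrays. Tuft, ciliated and cell-cycle medians lie close together for KO GFP+ and WT GFP+ cells against GFP- cells, whereas Aire-induced, pancreas, gut and liver lists have WT GFP+ medians at or above 0 and KO GFP+ medians below it. Between KO GFP+ and WT GFP+ cells the ciliated median was -0.44, with 5 of 13 called lower, where 10.8% of all genes were.

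Chemokine genes divided by name. Of 19 tested, 3 were called higher and 8 lower (median -0.49), where 30.1% and 25.1% of all genes were. The 3 were Ccl25, which draws thymocyte precursors (0.94 ± 0.18), Ccl19, a ligand of CCR7 (0.63 ± 0.11), and Cxcl10 (0.50 ± 0.17). The call of Cxcl10 was lost without GFP- array 7 (0.44), GFP- array 8 (0.37), KO GFP+ array 1 (0.48) or KO GFP+ array 3 (0.45). Ccl5 read 1285, 1155 and 1110 in KO GFP+ against 4033, 4445 and 4485 in GFP- cells (-1.87 ± 0.14, adjusted p = 1.16e-08). Ccl22, a ligand of CCR4, read 269.7 in KO GFP+, 693 in GFP- and 1258 in WT GFP+ cells (-1.33 ± 0.27). Xcl1, which draws dendritic cells into the medulla, was near the floor of the array in both groups compared, at 74.1, 80.1 and 64.6 against 97, 103 and 86.4 (-0.39 ± 0.14), and at 358, 328 and 362 in WT GFP+ cells. Its call was lost without GFP- array 6 (-0.38), GFP- array 7 (-0.33) or KO GFP+ array 3 (-0.31). Ccl17 (0.01 ± 0.20) and Cxcl13 (0.06 ± 0.27) were not called between KO GFP+ and GFP- cells, while WT GFP+ cells read Ccl17 at 1316 against 381 and 380.4.

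Most interferon-response genes were lower in KO GFP+ cells. Of 14 tested, 11 were called lower and 0 higher (median -0.88). Ifit3, which binds adaptor proteins of antiviral signalling, read 83.7, 70.3 and 42.8 against 502, 454 and 1001 (-3.28 ± 0.33, adjusted p = 4.53e-07), and WT GFP+ cells read 236, 253 and 376. The 3 groups did not overlap, and GFP- array 8 was the highest of its group. Rsad2, for viperin, read 125, 93.7 and 169.6 against 609.6, 322 and 556 (-1.93 ± 0.28), with WT GFP+ cells at 456. Irf7, the factor that amplifies the response, fell to 266 from 1244 (-2.19 ± 0.18), and Stat2 to 341 from 690.3 (-1.01 ± 0.13). Mx1 (-0.02 ± 0.17), Usp18 (0.27 ± 0.22) and Gbp3 (-0.59 ± 0.25) were not called, although Gbp3 was called lower in 4 alternatives, without GFP- array 7 (-0.73) among them, and the interferon-induced chemokine gene Cxcl10 was higher, as given above.

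The interferon-stimulated response element is a short motif found in promoters of genes that interferon induces. Its core, a pair of TTTC runs with any 2 bases between them, searched on both strands, stood in the windows of 8 of the 12 list genes with a RefSeq promoter (66.7%), against 3.5% of all promoters in the table. The windows of Ifit3, with 2 matches, and Rsad2, with 1, show it in capitals. A match is a run of letters and says nothing of binding in these cells. The table of promoters also holds genes not tested here.
Ifit3, chr19:34583279-34583578, plus strand: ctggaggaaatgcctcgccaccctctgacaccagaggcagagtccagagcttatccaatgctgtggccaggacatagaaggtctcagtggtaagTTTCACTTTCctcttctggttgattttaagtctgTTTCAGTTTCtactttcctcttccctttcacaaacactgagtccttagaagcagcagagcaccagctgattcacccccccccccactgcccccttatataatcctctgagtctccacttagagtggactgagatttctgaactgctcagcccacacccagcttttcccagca
Rsad2, chr12:26456403-26456702, minus strand: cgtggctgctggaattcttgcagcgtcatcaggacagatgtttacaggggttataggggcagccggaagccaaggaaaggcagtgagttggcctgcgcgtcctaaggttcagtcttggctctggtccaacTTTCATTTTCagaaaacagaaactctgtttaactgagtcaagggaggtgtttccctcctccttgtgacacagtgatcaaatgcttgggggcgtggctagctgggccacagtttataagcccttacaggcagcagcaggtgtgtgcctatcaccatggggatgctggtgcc

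Of 7 epithelial identity genes, 1 was called higher and 4 lower (median -0.35). Epcam read 3872 in KO GFP+ and 2641 in GFP- cells (0.56 ± 0.14), and Krt8 7255 and 7580 (-0.07 ± 0.12, not called), although Krt19 (-2.82 ± 0.25), Elf3 (-1.41 ± 0.19) and Cdh1 (-0.76 ± 0.09), for E-cadherin, were lower. Markers of other cells were measured as well. Summed over its tested list, thymocyte markers ran from 1070 to 2140 in KO GFP+ and 948 to 1972 in GFP- cells. Dendritic-cell and macrophage markers were called higher in 2 of 11, Fcer1g (2.14 ± 0.14) and Zbtb46 (0.46 ± 0.12), and lower in Itgam (-1.37 ± 0.11). A second one was called lower without GFP- array 7, GFP- array 8 or KO GFP+ array 3. The main counts were under the shares over all genes, 30.1% higher and 25.1% lower. The sum of these markers ran from 2354 to 2839 against 1705 to 2276. B-cell markers were higher in 4 of 6, with Cr2 first (2.38 ± 0.17), and summed to 1864 to 2001 against 1115 to 1362, while Cd79b (-0.04 ± 0.15) and Ighm (-0.18 ± 0.11) were not called.

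Fibroblast markers summed to 5572 to 6150 in KO GFP+ and 2834 to 3133 in GFP- cells. Dcn, for decorin, made up most of it, at 3238, 3363 and 3579 against 1148, 1410.1 and 1312 (1.40 ± 0.11), and Postn (1.39 ± 0.18), Lum (1.35 ± 0.18) and Thy1 (1.35 ± 0.21) were higher as well, 6 of 11 in all with 0 lower. The defining collagen genes were not called, with Col1a1 at -0.13 ± 0.09, Col1a2 at 0.14 ± 0.11 and Col3a1 at 0.07 ± 0.11. Endothelial markers were higher in 2 of 6 and lower in 1. The shares to set beside both lists are 30.1% of all genes higher and 25.1% lower. The part of other cells in the results above was not tested. Of the 4 tested sex-linked genes 0 were called by limma, and 0 at an unadjusted p under 0.05. However, 1 was called lower after quantile normalization, with only the 6 arrays compared in the fit, or without KO GFP+ array 3.

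The same comparison in perinates uses none of the arrays above. It sets 3 KO GFP+ arrays against 2 WT GFP- arrays from mice labelled as 3 days old, on the same background, transgene and gate. There 7015 of the 13842 genes were called (50.7%), 1092 of them at least 2-fold higher (7.89%) and 892 lower (6.44%). Of the adult genes at least 2-fold higher, 563 were so in perinates, which is 58.0% of the adult and 51.6% of the perinate genes, and of those lower 437, 41.7% and 49.0%. Across genes, which are not independent replicates, the 2 sets of log2 differences had a Pearson correlation of 0.72 and a Spearman correlation of 0.72. All arrays share a platform and a deposited table. Of the 4 tested sex-linked genes, 3 were called lower in perinate KO GFP+ cells (median -1.79), where 24.1% of all genes were. In the test between ages 0 of them were called (median 1.72). The part of a differing mix of sexes in the perinate values, and in the differences between ages, was not tested.

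The difference between the ages was tested directly, as adult minus perinate, and 2853 genes were called (20.6%). The reporter genes were among them. Aire was 4.08 higher in perinate KO GFP+ than GFP- cells on the log2 scale and 2.88 higher in adults, and G6pc2 4.61 and 2.49. Perinate GFP- cells read Aire at 270 and 351. Dnmt3l, by contrast, did not pass the test between ages, with log2 differences of 4.05 in adults and 4.27 in perinates.

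Several genes that differed little in adults were far higher in perinate KO GFP+ than perinate GFP- cells. Fezf2 differed by 2.85 in perinates against 0.25 in adults (adjusted p between ages = 1.53e-06). Adult GFP- cells read it at 3072 and perinate GFP- cells at 467, while KO GFP+ cells read 3666 and 3425. Of the 8 largest differences of this sign, 5 had the same form: Lyz2, for lysozyme (3.87 in perinates, -0.08 in adults), Il23r (3.70, 0.21), the chemokine receptor gene Ccr4 (3.97, 0.55), Fabp7 (3.59, 0.26) and Dio1, which activates thyroid hormone (3.92, 0.61). Each of these 5 read between 107 and 198 in perinate GFP- cells and at least 914 in adult GFP- cells. Reg3b (0.20, -3.41), Iapp (-0.03, -3.34) and Cyp2j13 (2.56, -0.62) completed the 8, as genes lower in adults. Lyz1 and Lyz2 are near-identical, and their probes may read both.

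Of the opposite sign were genes that perinate GFP- cells held at high levels. Cxcl12, a chemokine of cortical epithelium, read 704 and 790.1 in perinate GFP- cells against a mean of 95.9 in perinate KO GFP+ cells (-2.97), and 102 against 86.0 in adults (-0.24). Glrb (-2.92, 0.12), Slc38a4 (-2.59, 0.10), Fat3 (-3.54, -0.96), Ccdc80 (-2.77, -0.21) and Frem2 (-1.84, 0.88) had the same form. Nqo1 (-2.61, 1.01) and Ptprz1 (-2.01, 1.78) were the 2 genes called at least 2-fold in opposite directions this way. Another 10 were called at least 2-fold lower in adults and higher in perinates, Ccl22 among them (1.64, -1.33). The cortical list carried this shift, with a median of -0.87 in perinates and 0.19 in adults.

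**Figure D5:**
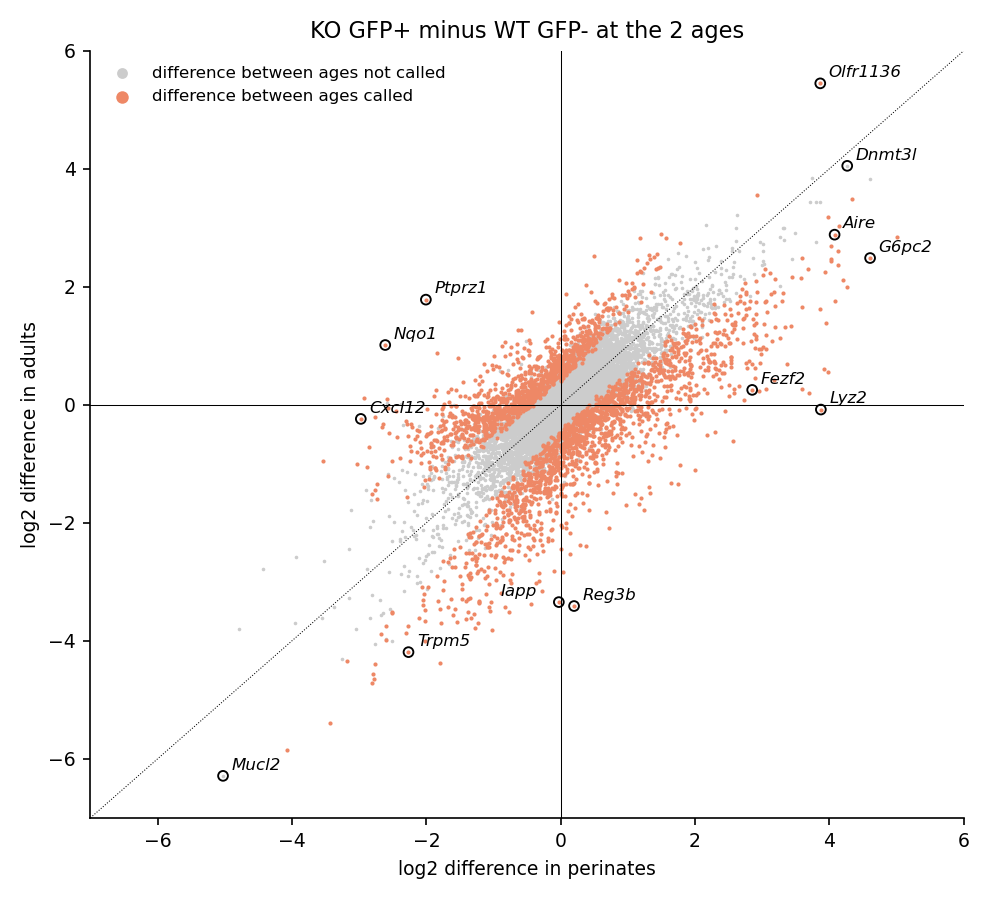
Log2 difference of KO GFP+ minus WT GFP- cells in adults (vertical) against perinates (horizontal), 1 point a gene, with genes whose difference between the ages was called in orange. Dnmt3l lies near the dotted line of equality, Olfr1136 above it, Fezf2 and Lyz2 far to its right, and Nqo1 and Ptprz1 in the quadrant of opposite directions.

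The list medians kept their sign at both ages for the patterns that lead the adult comparison. Tuft genes had a median of -1.16 in perinates, with 15 of 20 called lower, and keratinised genes -1.30, with 18 of 22, where 24.1% of all genes were called lower. Cell-cycle genes had a median of 0.83, with 22 of 22 higher, where 26.6% were. Aire-induced transcripts had a median of -0.74, with 12 of 15 lower. The tests between ages called 14 of the 20 tuft genes, 11 of the 22 keratinised genes and 12 of the 15 Aire-induced transcripts as more negative in adults, where 12.2% of all genes were, and 9 of the 22 cell-cycle genes as more positive, where 8.39% were. These tests also depend on the GFP- cells of each age. For example, Avil read 1047 in adult and 225 in perinate GFP- cells, and 106 and 70.1 in KO GFP+ cells. Alox5 read 1526 and 424 in GFP- cells, and 199 and 121 in KO GFP+ cells.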

How the data were processed

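The series holds 17 arrays in 6 groups, and the 6 adult KO GFP+ and WT GFP- arrays were assigned by their titles. The deposited values were intensities on a linear scale, made by the authors with Affymetrix Power Tools and RMA, per the submitters' processing notes. Their versions, and which arrays were normalized as a set, are not given in the sources here. Platform annotation gave 1 symbol for 21425 of the 24922 probe sets, several for 1399 and none for 2098. RefSeq held 21347 of the first by Entrez number, and no symbol changed.

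The log2 of each value was taken with no further normalization. Of several probe sets of a gene (921 of 19752 genes) the one with the highest mean was kept. Genes above the 40th percentile of the array on at least 2 arrays were tested, 13842 in all. A model of 6 group means over the 17 arrays (11 residual degrees of freedom) was fitted with limma 3.58.1 in R 4.3.3, with empirical Bayes moderation and Benjamini-Hochberg adjustment over all genes tested. Data of this size were simulated with a small part of the genes changed and with independent noise. There the fit called 91% of genes changed by 2-fold and 70.1% of those changed by 1.5-fold. In the real comparison 7644 of 13842 genes were called, so these rates need not hold for it. An array gives no count of molecules, so the number of arrays limits the precision.

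Members and gene lists were chosen with earlier results of these data known. Of 488 genes in 31 lists, 447 had a probe set of their own and 392 passed the filter, while 55 were too dim. Named genes are the 15 largest called differences each way whose 3 arrays a group did not overlap, the 8 largest each way between ages, and members of the lists, given with the counts of their list. Pfkl, Gatd3a, Trappc10, Trpm2, Lrrc3, Cfap410, Pwp2 and Agpat3, and the genes opposite between ages, were chosen after their values were seen. The alternatives were other filters, quantile or median scaling, fewer arrays in the fit, array weights, a replicate block, a trended robust prior, another probe set and each array left out.

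Replicate numbers (1 to 3 in KO GFP+, 6 to 8 in adult WT GFP-) are not shared by the adult groups compared. Adult WT GFP+ and GFP- arrays share theirs, and the deviations of same-numbered arrays from their group means correlated at 0.5, 0.44 and 0.19. Differently numbered arrays of these groups ran from -0.44 to 0.1. However, WT GFP+ array 6 and KO GFP+ array 3, which share no number, reached 0.42. Whether the numbers pair samples was not tested, and the labels do not say it.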

Additional observations from a re-analysis of the deposited data

Results flagged for a closer look

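The KO GFP+ minus WT GFP- difference itself differed between adults and perinates, by limma's test of the adult minus perinate value at an adjusted p under 0.05, for 110 of the 196 genes named. The adult value was the more positive one for 28 and the more negative one for 82, and the values below are adult minus perinate on the log2 scale. A difference of ages was called for 20.6% of all genes tested, and named genes were partly chosen for it. Each value also depends on the GFP- cells of both ages, so it does not give a change in KO GFP+ cells alone.

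Among genes of the sort and of self-antigen control the values were Fezf2 (-2.60), G6pc2 (-2.12) and Aire (-1.19). In the list of transcripts cited as Aire-induced and among the largest adult deficits they were Klk1b8 (-2.58), Csn1s1 (-2.28), Tff3 (-2.13), Cyp2f2 (-1.99), Ly6g (-1.96), Cyp2b19 (-1.91), Gabrp (-1.88), Scgb1a1 (-1.77), Klk1b22 (-1.77), Tac2 (-1.62), Obp2a (-1.59), Csn2 (-1.55), Crabp1 (-1.40), Gpx3 (-1.39), Ly6a2 (-1.16) and Csn1s2a (-1.13). Genes of pancreas, gut, stomach, liver and brain had Reg3b (-3.61), Iapp (-3.32), Spink1 (-2.79), Pla2g1b (-2.12), Nts (-2.0), Alb (-1.77), Mep1a (-1.72), Apoa1 (-1.70), Clps (-1.60), Pgc (-1.49), Ctrb1 (-1.36), Muc5ac (-1.33), Ppy (-1.14), Sst (-1.14), Ins2 (-1.10) and Calb1 (-0.98). The genes given here were all more negative in adults.

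Tuft-cell genes had Trpm5 (-1.93), Il17rb (-1.80), Avil (-1.65), Pou2f3 (-1.61), Alox5 (-1.24), Dclk1 (-1.21) and Alox5ap (-1.17), and keratinised genes Krt10 (-2.26), Krt1 (-1.90), Ivl (-1.57), Klk5 (-1.28) and Klk7 (-1.19). Genes of the other specialised and epithelial lists had Gp2 (-2.95), Ly6d (-1.96), Spib (-1.58), Tnfrsf11b (-1.52), Dynlrb2 (-1.38), Ehf (-1.34), Tnfrsf11a (-1.28), Elf3 (-1.17), Chga (-1.06), Gal (-0.98) and Ttn (-0.91) on the negative side and Itga6 (0.54), Ret (0.71), Pax1 (1.25), Kitl (1.54), Ackr4 (2.03) and Cxcl12 (2.74) on the positive side.

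For antigen presentation and costimulation the values were H2-Eb2 (-2.32), Cd86 (-2.14), Cd80 (-2.05), H2-Ob (-1.29), Pdcd1lg2 (-1.22), Psme2 (-0.77) and Cd40 (-0.59), with Fas (0.94) and Ctla4 (1.40) as the ones more positive in adults. Chemokines, with the receptor gene Ccr4, had Ccr4 (-3.42), Ccl22 (-2.97), Ccl5 (-1.42), Ccl17 (-0.92) and Cxcl10 (0.82). Cell-cycle genes had Mki67 (0.90), Cdk1 (1.09), Bub1b (1.12) and Ccna2 (1.24), all more positive in adults.

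Markers of other cells gave Cr2 (-1.75), Cd79b (-1.24), Fcer1g (-1.05) and Itgam (-0.96) for myeloid and B cells and Col1a1 (0.48), Col1a2 (0.51), Dcn (0.83) and Postn (1.26) for fibroblasts. Of the remaining genes of the largest adult excess and of the neighbourhood of Aire, Trpm2 (0.63), Crhbp (0.64), Maoa (1.26) and Olfr1136 (1.58) were more positive in adults and Chrna5 (-1.10), Tvp23a (-0.85) and Dpp10 (-0.80) more negative. The largest values of both signs and the lysozyme pair were Lyz2 (-3.95), Il23r (-3.50), Fabp7 (-3.32), Dio1 (-3.31), Cyp2j13 (-3.18), Lyz1 (-3.11), Ccdc80 (2.56), Fat3 (2.59), Slc38a4 (2.69), Frem2 (2.72), Glrb (3.04), Nqo1 (3.62) and Ptprz1 (3.79).

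The comparisons above use probe sets with a single gene symbol. Of 2104 tested probe sets without one, which carry several symbols or none, 103 were called at least 2-fold higher in KO GFP+ than in GFP- cells and 122 lower.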

How the results depend on the processing

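The counts of genes called between adult KO GFP+ and WT GFP- cells stayed within 1.5 times of the reported ones under every alternative run, from 6127 with a filter at the 60th percentile to 8344 without a filter, against 7644. Leaving out 1 array gave 6677 to 7297 calls, with 898 to 1044 genes at least 2-fold higher and 1008 to 1122 lower. The difference between ages, for which no array was left out, gave 2390 genes with a filter at the 60th percentile to 3318 with the replicate block, against 2853. A random replicate block by number within age (consensus correlation 0.282) gave 7625 calls, 971 and 1050 at least 2-fold higher and lower, and 3318 genes for the difference between ages; it changed no call of a named gene, and the adult groups compared share no replicate number. The share of called genes that were higher was 54.6%, against 51.9% after quantile normalization and 59.5% after centring on the median. For the 196 named genes, 3072 of 3119 recomputed differences kept their direction and their side of the threshold, 26 lost the call, 20 gained one and 1 reversed. The reversed one was Atf7ip, at 0.12 with its most variable probe set (adjusted p = 0.496), and over its other alternatives it stayed negative. Quantile normalization lost the calls of H2-Eb1 (0.19), Cxcl10 (0.40), Xcl1 (-0.30) and Ccr4 (0.38), whose call was also lost without GFP- array 8 (0.36) or KO GFP+ array 1 (0.51); the cause was not tested. Among the lists, the endocrine count of lower genes went from 8 to 13 without a filter, which tests more genes, and B-cell markers from 4 higher to 1 with the stricter one. The main limits are the joint change of gate and genotype, the replicate numbers that KO and WT adults do not share, and the 3 arrays a group. A further one is the floor of the array, under which 424 of the 1047 lower genes had their KO GFP+ mean.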

Other observations

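Besides Ccl22, Nqo1 and Ptprz1, 9 genes were called at least 2-fold in opposite directions at the 2 ages, each lower in adult and higher in perinate KO GFP+ cells. Lypd8, which keeps flagellated bacteria off the colon surface, read 1945 in adult KO GFP+ and 4943 in adult GFP- cells, against 1556 and 454 in perinates. Lyz1, for a Paneth-cell lysozyme, read 2692 and 5746 in adults and 1660 and 414 in perinates, with the reserve on its near-identical copy given above. Csf2rb2, for a receptor chain of interleukin-3, read 1137 and 2322 in adults and 1079 and 315 in perinates. In these 3 genes the GFP- means of the ages lay further apart than the KO GFP+ means.

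Il12rb2, for a receptor chain of interleukin-12, differed by -1.78 in adults and 1.24 in perinates on the log2 scale, and Foxa1, a pioneer transcription factor of gut and lung epithelium, by -1.5 and 1.1. Myl7, of the atrial myosin light chain (-1.68 and 1.16), Abca13 (-1.57 and 1.2), the histone gene H3c15 (-1.49 and 1.33) and Fabp9, of testis (-1.39 and 1.32), had the same form. H3c15 has near-identical copies, and its means of 31.3 to 116 lay at or near the floor of the array. These genes were chosen after their values were seen, and limma's test of the difference between ages gave adjusted p from 2.32e-07 for Il12rb2 to 0.00723 for Fabp9.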
